A study of Mus musculus with 16 samples.

Results

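NLRX1 is a mitochondrial member of the NOD-like receptor family, and the genes described here encode 10 proteins reported to bind it: *Mavs*, *Sting1*, *Traf6*, *Tufm*, *Fastkd5*, *Uqcrc2*, *Becn1*, *Atg5*, *Atg12* and *Rrbp1*. The genes were taken by symbol from the deposited table of log2 CPM, read counts scaled to the size of the library, and all 10 were found among its 16707 genes. The rule used the names alone and no measured value, although the names were chosen with earlier results of these data known. All 10 passed the filter on low counts and were among the 16066 genes tested.

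RNA was sequenced from primary astrocytes of C57BL6J wild-type (WT) mice and of Nlrx1-/- mice (KO), purified from pup brains with beads against the astrocyte surface antigen ACSA-2 and grown in serum-free medium with heparin-binding EGF. The labels and methods give the pups as postnatal day 6, and the results text of the study gives another age. Each of 4 WT and 4 KO replicates, called litters here, gave a well with water as vehicle and a well with 500 ng/mL lipopolysaccharide (LPS), a component of bacterial outer membranes, and 10 ng/mL of the cytokine interferon-γ (IFNγ), both for 24 h. The groups were therefore WT vehicle, WT LPS + IFNγ, KO vehicle and KO LPS + IFNγ, with 4 libraries in each, and both wells of a litter came from the same set of mice. The KO mice lack NLRX1 globally, not in astrocytes alone.

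NLRX1 sits in or at mitochondria and is known for dampening innate immune signalling and for shaping mitochondrial function and autophagy. Its reported partners fall into 4 kinds: adaptors that pass signals from nucleic acid sensors and Toll-like receptors, proteins of the mitochondrial matrix and inner membrane, autophagy proteins, and a ribosome receptor of the endoplasmic reticulum. Astrocytes, the glial cells that support neurons and the blood-brain barrier, respond to LPS and IFNγ with an inflammatory and antiviral gene programme. What follows concerns the RNA of the partners, not their proteins or their binding.

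The reads that Salmon placed on transcripts numbered 27259420 pairs in the shallowest library and 43752903 in the deepest. Astrocyte markers were present in every library, with 10 of 10 in the deposited table and a summed level between 2692 and 6867 TPM, a level scaled by transcript length. The sum ranged from 4227 to 6867 TPM in WT vehicle, 3428 to 5044 in WT LPS + IFNγ, 2980 to 4999 in KO vehicle and 2692 to 3873 in KO LPS + IFNγ. The KO litters differed within that sum. The astrocyte filament gene *Gfap* was at 569, 124, 1080 and 249 TPM in KO vehicle litters 1 to 4 and at 446, 254, 704 and 240 after LPS + IFNγ, and the myelin gene *Mbp* at 56.9, 4.94, 137 and 7.23 and at 9.42, 0.887, 32.8 and 1.27. In WT, *Gfap* was at 675 to 2062 TPM in vehicle and 509 to 1067 after LPS + IFNγ, and *Mbp* at 85.7 to 221 and 23.6 to 103. KO litters 2 and 4 thus stood lowest in both genes. Other markers of astrocytes and of the oligodendrocyte lineage were split. In KO vehicle litters 1 to 4 *Aqp4* followed *Gfap*, at 353, 126, 422 and 233 TPM. *Aldh1l1*, at 578, 522, 506 and 564 TPM, and *Olig2*, at 478, 528, 273 and 474 TPM, did not. Results that rest on KO litters 2 and 4 are also given without them, an alternative chosen after the data had been seen. Of 10 microglia and macrophage markers 1 was in the deposited table, and their sum did not exceed 3.11 TPM in any library. *Nlrx1* itself, the targeted gene, was at 4.11 to 4.44 log2 CPM in WT vehicle, 1.84 to 2.96 in KO vehicle, 4.08 to 4.19 in WT LPS + IFNγ and 1.09 to 2.23 in KO LPS + IFNγ, so the genotypes did not overlap. The KO libraries still held 76 to 311.5 reads of *Nlrx1*, and which exons the allele lacks is not given in the sources used here. *Nlrx1* was lower in KO by -1.70 log2 in vehicle (edgeR, adjusted p = 0.0538) and by -2.19 after LPS + IFNγ (edgeR, adjusted p = 0.00318), so even the targeted gene missed the threshold of 0.05 in vehicle.

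Compared per length, the partners spanned about 2 orders of magnitude in WT vehicle cultures. *Uqcrc2*, a core subunit of respiratory complex III, was highest at 210.0 ± 1.27 TPM (SD, n = 4), followed by *Rrbp1* at 141 ± 1.97 and *Tufm* at 132 ± 6.23. *Becn1* stood at 73.4 ± 1.77 TPM, *Atg12* at 62.4 ± 2.38, *Atg5* at 31.1 ± 3.66, *Mavs* at 25.5 ± 2.40 and *Traf6* at 18.1 ± 1.30. *Fastkd5* at 8.92 ± 0.985 TPM and *Sting1* at 2.02 ± 1.13 TPM were lowest. In WT vehicle the libraries of neighbours in this order did not overlap, except those of *Atg5* and *Mavs*. *Sting1* was the member that changed place most: it was last in both vehicle groups, 9th in WT LPS + IFNγ with libraries that overlapped those of *Fastkd5*, and 6th in KO LPS + IFNγ, where its libraries overlapped those of *Atg5*. *Rrbp1* and *Tufm* overlapped in each of the other 3 groups.

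**Figure D1:**
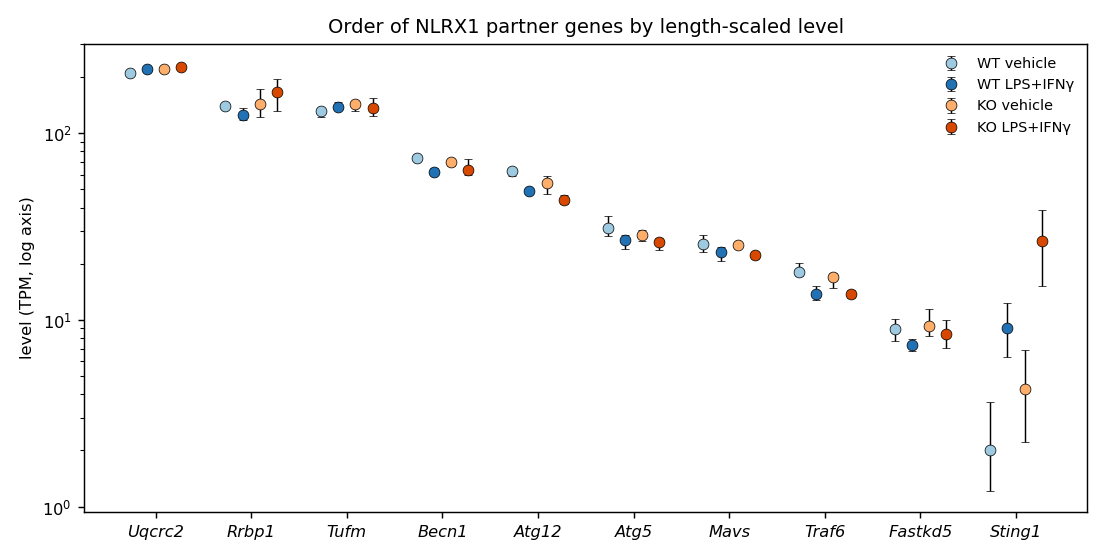
Level of each gene in TPM (log axis), with points for the mean of 4 libraries and bars from the lowest to the highest library, in the 4 groups. The order of the genes is that of WT vehicle, and *Sting1* moves from 2.02 TPM in WT vehicle to 26.4 TPM in KO LPS + IFNγ while the other genes keep within a narrow range.

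The partners also differed in how closely litters agreed. *Uqcrc2* had a pooled SD within groups of 0.05 log2 CPM, and 0.227% of all genes in the deposited table had a lower one. *Sting1* had a pooled SD of 0.63, with 82.8% of genes below it. *Rrbp1* at 0.19 and *Fastkd5* at 0.19 lay near the middle, and the other 6 had SDs from 0.08 to 0.13.

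**Figure D2:**
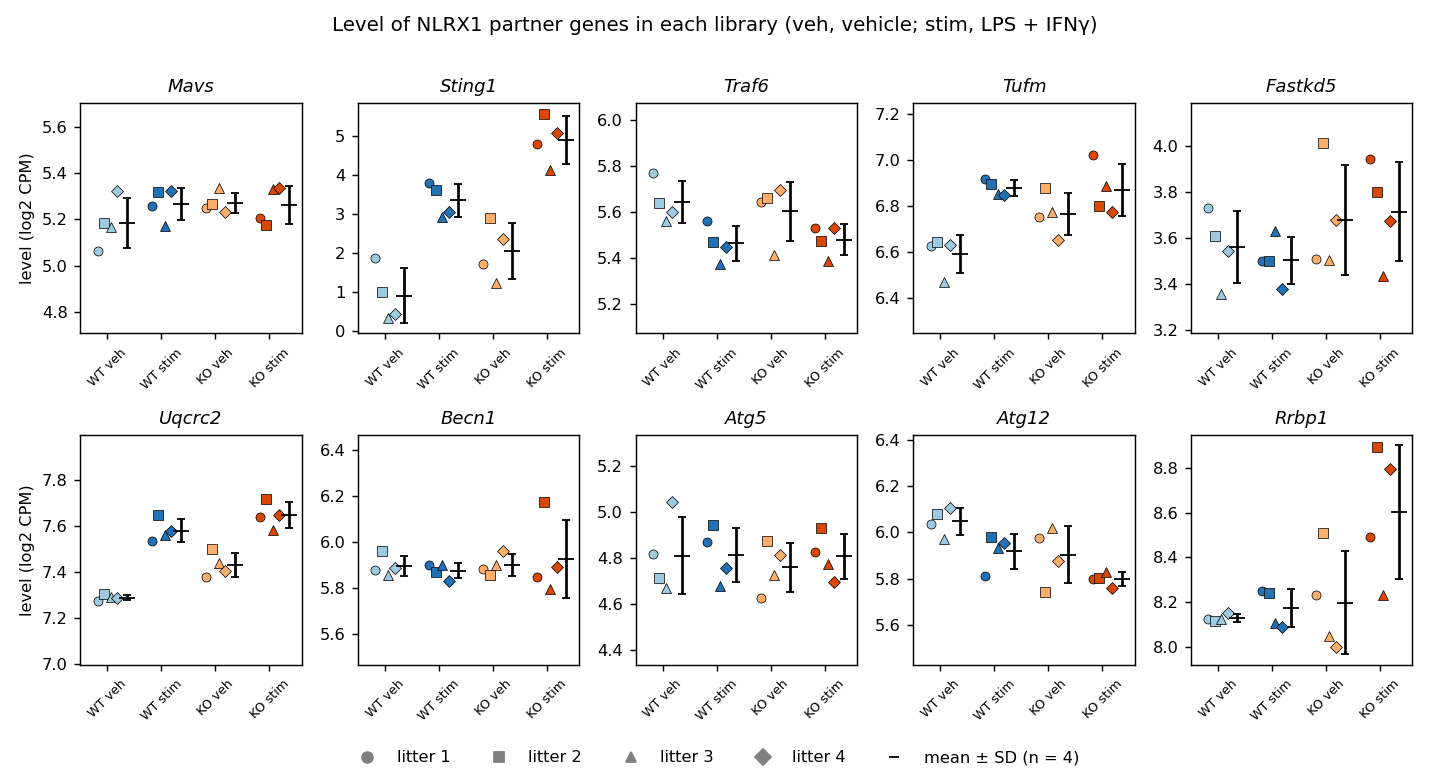
Level of each gene in log2 CPM in every library, by group, with a marker shape for the litter and the mean ± SD beside each group. Each panel has its own range of at least 1 log2 unit, and *Sting1* is the only panel in which the groups spread over more than 5 log2 units.

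The first question was how the partners responded to LPS + IFNγ, compared between wells of the same litter. The test was edgeR's quasi-likelihood test with the litter as a block, and a gene was called at a Benjamini-Hochberg adjusted p below 0.05 over all genes tested. In WT astrocytes 4 of 10 partners passed, 3 up and 1 down, beside 43.9% of all genes, and in KO astrocytes 3 of 10 passed, all up, beside 49.4%. Among all genes tested 23.7% were called up and 20.2% down in WT, and 25.3% up and 24.2% down in KO. The median response of the 10 was 0.01 log2 in WT and 0.03 in KO, beside -0.02 and -0.03 over all genes. The split depends on how libraries are scaled. With library totals in place of the trimmed mean of M-values (TMM), which assumes that most genes do not change, an alternative chosen after the data had been seen, the median of all genes moved to -0.18 in WT and -0.19 in KO, and the called genes changed from 3813 up and 3240 down to 2433 up and 5384 down in WT, and from 4057 and 3886 to 2657 and 5887 in KO. Small responses below are therefore changes relative to the bulk of genes.

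Of the adaptors, *Sting1* (chr18:35866732-35873607, GRCm39) encodes the adaptor of the endoplasmic reticulum that receives the cyclic dinucleotide made by the DNA sensor cGAS. Its level in WT vehicle was 1.87, 1.00, 0.34 and 0.45 log2 CPM in litters 1 to 4, and 3.81, 3.62, 2.92 and 3.05 after LPS + IFNγ. In KO vehicle it was 1.73, 2.90, 1.23 and 2.37 log2 CPM, and after LPS + IFNγ 4.80, 5.57, 4.13 and 5.08. Every stimulated library lay above every vehicle library of its genotype, which held for 20.2% of genes in WT and 17.6% in KO. The litters kept their differences: WT litter 1 and KO litter 2 were highest before and after stimulation, and KO litter 3 was the lowest KO litter in both wells.

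*Sting1* rose by 2.44 log2 (SE 0.15, 5.42-fold, edgeR, adjusted p = 4.19e-07) in WT and by 2.83 (SE 0.14, 7.12-fold, edgeR, adjusted p = 7.25e-08) in KO. The rises in single litters were 1.93, 2.63, 2.57 and 2.61 in WT and 3.07, 2.67, 2.90 and 2.71 in KO on the log2 CPM scale. These do not overlap, which is the case with a larger KO response for 3.06% of genes, but the difference of the responses was 0.39 log2 (SE 0.20) and was not called (edgeR, adjusted p = 0.367). Without WT litter 1, the lowest of the 8 rises, the difference was 0.19 (edgeR, adjusted p = 0.640). Leaving out KO litters 2 and 4 moved it the other way, to 0.56 (edgeR, adjusted p = 0.602).

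Fewer cells of a type and less RNA per cell cannot be told apart in such bulk samples. The summed microglia and macrophage markers were 0.618 to 2.41 TPM in WT vehicle, 0.688 to 3.11 in WT LPS + IFNγ, 0.240 to 1.43 in KO vehicle and 0.861 to 1.97 in KO LPS + IFNγ. *Sting1* was at 26.4 ± 9.72 TPM (SD, n = 4) in the last group. Endothelial cell and pericyte markers, 3 of 7 in the deposited table, summed to 1.51 to 8.59 TPM over the 16 libraries and to 2.55 to 5.34 in KO LPS + IFNγ. Fibroblast markers, 5 of 5 in the table, were at 23.8 to 55.5 TPM in KO vehicle and 10.5 to 26.5 TPM in KO LPS + IFNγ. In WT the fibroblast markers were at 47.3 to 52.2 TPM in vehicle and 14.9 to 22.8 TPM after LPS + IFNγ. Most of this WT sum was *Pdgfra*, a gene that the oligodendrocyte lineage list below also counts. The mean of *Pdgfra* went from 40.9 to 14.1 TPM with stimulation of the WT litters, and from 26.4 to 7.89 TPM in KO. *Col1a1*, *Col1a2*, *Dcn* and *Lum* each had means of at most 4.77 TPM in every group, and these were also lower after stimulation.

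Markers of other neural cells also moved with the treatment. Neuron markers, 6 of 7 in the deposited table, summed to 22.5 to 25.8 TPM in WT vehicle and 66.5 to 105 in WT LPS + IFNγ, and to 18.9 to 27.3 in KO vehicle and 68.0 to 95.2 in KO LPS + IFNγ. In WT most of that sum was *Tubb3*, a tubulin, with a mean of 13.3 TPM in vehicle and 74.4 after LPS + IFNγ. The other neuron markers were mixed in WT. *Snap25* went from 2.92 to 3.64 TPM and *Stmn2* from 2.09 to 4.11. *Rbfox3*, which encodes the neuronal nuclear antigen, went from 1.92 to 0.914, *Gad1* from 3.67 to 0.895, *Syt1* from 0.496 to 0.379 and *Slc17a7* from 0.112 to 0.0863. Oligodendrocyte lineage markers, 9 of 9 in the table, were at 673 to 887 TPM in WT vehicle, 449 to 644 in WT LPS + IFNγ, 581 to 717 in KO vehicle and 391 to 516 in KO LPS + IFNγ. Ependymal cell markers, 5 of 6 in the table, were at 191 to 273, 117 to 163, 107 to 202 and 61.1 to 108 TPM in these 4 groups. The part of these cells in the levels of *Sting1* and the other partners was not tested.

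*Mavs* (chr2:131075442-131096740) encodes the mitochondrial adaptor of the RNA sensors RIG-I and MDA5. It did not pass the test in either genotype: its response was 0.08 log2 (SE 0.06, edgeR, adjusted p = 0.335) in WT and -0.02 (SE 0.06, edgeR, adjusted p = 0.854) in KO. All 16 libraries lay between 5.06 and 5.34 log2 CPM, a narrow band in which the 4 groups overlapped.

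*Traf6* (chr2:101508519-101533545) encodes a ubiquitin ligase that carries signals from Toll-like and interleukin-1 receptors to NF-κB. It was at 5.77, 5.64, 5.56 and 5.60 log2 CPM in WT vehicle and at 5.56, 5.47, 5.38 and 5.45 after LPS + IFNγ. Each WT litter was lower after stimulation, by 0.15 to 0.21 log2 CPM, although the highest stimulated library reached the lowest vehicle library. The fall in WT was -0.19 log2 (SE 0.05, edgeR, adjusted p = 0.0147). In KO the value was -0.14 (SE 0.05, edgeR, adjusted p = 0.0519), again negative in 4 of 4 litters, and the interaction was not called (0.05, SE 0.08, edgeR, adjusted p = 0.785). A fall in all 4 litters was seen for 30.0% of genes in WT and 29.0% in KO, and a rise in all 4 for 31.2% and 29.6%. The WT call was lost without the litter block (edgeR, adjusted p = 0.0592) and without WT litter 1, 2 or 3, and with library totals the fall was called in both genotypes (-0.35 in WT, edgeR, adjusted p = 0.000469, and -0.30 in KO, edgeR, adjusted p = 0.00105).

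The list counts below stand beside 23.7% of all genes called up and 20.2% down in WT, and 25.3% and 24.2% in KO. Around the adaptors, 14 of 14 genes of MAVS and RIG-I-like receptor signalling were tested. Of these 10 were called up and 0 down in each genotype, with a median response of 0.61 log2 in WT and 0.73 in KO, and with library totals 8 were up and 1 down in each. *Irf7*, a transcription factor of type I interferon genes, rose by 5.59 log2 (SE 0.29, edgeR, adjusted p = 1.32e-07) in WT and 5.60 (SE 0.28, edgeR, adjusted p = 9.60e-08) in KO, and *Ifih1*, which encodes MDA5, by 3.14 (SE 0.18, edgeR, adjusted p = 3.16e-07) and 3.42 (SE 0.18, edgeR, adjusted p = 1.59e-07). *Dhx58*, which encodes the RNA helicase LGP2, had a mean of -1.20 log2 CPM in WT vehicle and 3.88 after LPS + IFNγ, and of -1.03 and 4.51 in KO. Thus many partners of *Mavs* in its pathway rose while *Mavs* did not pass the test.

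In cGAS-STING signalling 5 of 7 genes rose and 1 fell in each genotype, with medians of 1.43 log2 in WT and 0.92 in KO. *Ifi204*, a DNA-binding interferon-inducible gene, rose by 7.12 log2 (SE 0.22, edgeR, adjusted p = 1.60e-09) in WT and 7.78 (SE 0.21, edgeR, adjusted p = 7.37e-10) in KO. *Trex1*, an exonuclease that degrades cytosolic DNA, rose by 2.41 log2 (SE 0.23, edgeR, adjusted p = 1.31e-05) and 2.92 (SE 0.23, edgeR, adjusted p = 3.07e-06). *Samhd1*, a nucleotide phosphohydrolase, rose by 3.14 (SE 0.14, edgeR, adjusted p = 3.29e-08) and 3.13 (SE 0.14, edgeR, adjusted p = 3.18e-08). *Sting1*, which is not counted in this list, rose by 2.44 and 2.83 as given above.

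In TRAF6 and IKK signalling 7 of 15 genes rose and 1 fell in WT, and 9 rose and 2 fell in KO, with medians of 0.12 and 0.21 log2. With library totals the WT count became 5 up and 6 down and its median -0.04. *Myd88*, the receptor adaptor upstream of *Traf6*, rose by 2.54 log2 (SE 0.15, edgeR, adjusted p = 4.46e-07) in WT and 2.80 (SE 0.15, edgeR, adjusted p = 2.04e-07) in KO, while *Irak2*, a kinase-like partner of TRAF6, rose by 0.76 (SE 0.13, edgeR, adjusted p = 0.000846) and 1.35 (SE 0.13, edgeR, adjusted p = 1.60e-05). The interaction was not called for any gene of the 3 lists.

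**Figure D3:**
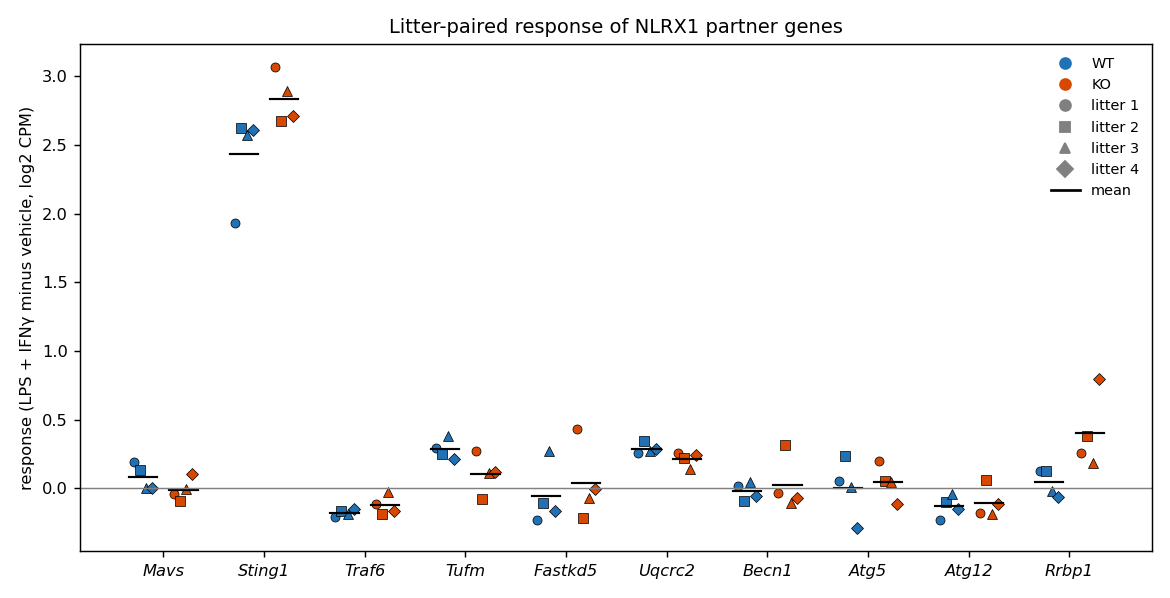
Response of each gene to LPS + IFNγ as the stimulated minus the vehicle log2 CPM of the same litter, with a marker shape for the litter, blue for WT, orange for KO and a bar for the mean of 4 litters. *Sting1* lies between 1.93 and 3.07 in all 8 litters, *Uqcrc2* between 0.14 and 0.34, and the KO litters of *Rrbp1* between 0.18 and 0.80, above its WT litters.

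Among the mitochondrial partners, *Uqcrc2* (chr7:120233976-120260035) gave the most even response. It was at 7.27, 7.30, 7.29 and 7.29 log2 CPM in WT vehicle and at 7.53, 7.65, 7.56 and 7.58 after LPS + IFNγ. In KO it was at 7.38, 7.50, 7.44 and 7.41 in vehicle and at 7.64, 7.72, 7.58 and 7.65 after LPS + IFNγ. The stimulated libraries lay above the vehicle libraries in both genotypes, as they did for 20.2% of genes in WT and 17.6% in KO. *Uqcrc2* rose by 0.28 log2 (SE 0.04, 1.21-fold, edgeR, adjusted p = 0.000259) in WT and by 0.20 (SE 0.04, 1.15-fold, edgeR, adjusted p = 0.00183) in KO, and the interaction was -0.08 (SE 0.06, edgeR, adjusted p = 0.540). With library totals the KO rise was 0.04 and not called (edgeR, adjusted p = 0.451), and the WT rise was 0.12 (edgeR, adjusted p = 0.0329).

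*Tufm* (chr7:126086511-126089903) encodes the mitochondrial elongation factor that brings aminoacyl-tRNA to the ribosome and that also takes part in autophagy. Its WT vehicle level was 6.62, 6.64, 6.47 and 6.63 log2 CPM, and its level after LPS + IFNγ was 6.92, 6.90, 6.85 and 6.85. In KO vehicle it was 6.75, 6.88, 6.77 and 6.65, and after LPS + IFNγ 7.02, 6.80, 6.88 and 6.77. The 2 WT groups were apart, as they were in this direction for 20.2% of genes. The KO groups overlapped, and KO litter 2 was lower after stimulation. *Tufm* rose by 0.28 log2 (SE 0.06, edgeR, adjusted p = 0.00225) in WT, and its KO value was 0.09 (SE 0.06, edgeR, adjusted p = 0.194). The responses were not shown to differ, since the interaction of -0.19 (SE 0.08) had an unadjusted p of 0.0389 and an adjusted p of 0.301 in edgeR. Without KO litter 2 the KO rise was 0.15 and called (edgeR, adjusted p = 0.0468), and with library totals it was -0.07 in KO and the WT rise was 0.12 and not called (edgeR, adjusted p = 0.127).

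*Fastkd5* (chr2:130454985-130471947) encodes a mitochondrial protein needed to process non-canonical mitochondrial transcripts. With 317 to 601 reads per library it had a response of -0.07 log2 (SE 0.12, edgeR, adjusted p = 0.678) in WT and 0.02 (SE 0.12, edgeR, adjusted p = 0.896) in KO. Single litters went both ways, from -0.23 to 0.27 log2 CPM in WT and from -0.21 to 0.43 in KO. Its exons overlap those of *Ubox5* on the same strand, so reads of the pair may be split uncertainly.

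The neighbours of these proteins behaved as follows. All 8 of the other listed complex III genes rose in WT (median 0.47 log2), and 4 of 8 rose in KO (median 0.26). Their levels already differed before stimulation: the median difference of KO from WT was 0.26 log2 in vehicle and 0.03 after LPS + IFNγ. Over all genes these medians were 0.0008 and -0.01, and no gene of the 8 was called in either. *Uqcrq*, a small subunit, rose by 0.53 log2 (SE 0.07, edgeR, adjusted p = 0.000100) in WT and by 0.58 (SE 0.07, edgeR, adjusted p = 4.69e-05) in KO, and *Cyc1*, which encodes cytochrome c1, by 0.52 (SE 0.06, edgeR, adjusted p = 8.15e-05) and 0.39 (SE 0.06, edgeR, adjusted p = 0.000495). *Uqcr11*, another small subunit, rose by 0.50 (SE 0.09, edgeR, adjusted p = 0.00138) in WT and was at -0.05 (SE 0.09, edgeR, adjusted p = 0.693) in KO, and *Uqcrh*, the hinge subunit, was at -0.13 (SE 0.08, edgeR, adjusted p = 0.224) in KO. The interaction was not called for any of the 8, at an adjusted p of 0.217 for both *Uqcr11* (-0.55, SE 0.13, edgeR) and *Uqcrh* (-0.51, SE 0.12, edgeR). With library totals 6 of 8 were called up and 0 down in WT, and 4 up and 2 down in KO.

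Of 9 mitochondrial translation factors besides *Tufm*, 3 rose in both genotypes and 0 fell. They were *Tsfm*, the exchange factor of the TUFM protein, at 0.65 log2 in WT (SE 0.11, edgeR, adjusted p = 0.000611) and 0.37 in KO (SE 0.10, edgeR, adjusted p = 0.0123), and the elongation factors *Gfm1* at 0.44 and 0.37 and *Gfm2* at 0.36 and 0.30. Of 12 genes of the FASTK family and mitochondrial RNA handling, 3 rose and 1 fell in WT and 5 rose in KO. Over all genes 23.7% were called up and 20.2% down in WT, and 25.3% and 24.2% in KO. *Fastk*, the founding member of the family, rose by 0.47 log2 (SE 0.05, edgeR, adjusted p = 3.15e-05) and 0.54 (SE 0.05, edgeR, adjusted p = 9.43e-06). *Polrmt*, the mitochondrial RNA polymerase, fell by 0.32 log2 (SE 0.06, edgeR, adjusted p = 0.00261) in WT. The medians of these lists lay between 0.03 and 0.15 log2, and with library totals they were negative. With library totals 3 translation factors were up and 1 down in WT and 1 up and 1 down in KO, and of the FASTK and RNA handling genes 2 were up and 3 down in WT and 2 up and 2 down in KO.

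None of the autophagy partners passed the test in either genotype. *Becn1* (chr11:101176769-101193122) encodes Beclin 1 of the lipid kinase complex that starts autophagosomes, and its response was -0.03 log2 (SE 0.07, edgeR, adjusted p = 0.748) in WT and 0.01 (SE 0.07, edgeR, adjusted p = 0.901) in KO. *Atg5* (chr10:44142076-44240308), whose protein is joined to ATG12, was at -0.01 (SE 0.09, edgeR, adjusted p = 0.939) in WT and 0.03 (SE 0.09, edgeR, adjusted p = 0.781) in KO. *Atg12* (chr18:46862694-46874886), a ubiquitin-like modifier, was at -0.13 (SE 0.06, edgeR, adjusted p = 0.0887) in WT and -0.13 (SE 0.06, edgeR, adjusted p = 0.0790) in KO. *Atg12* was lower after LPS + IFNγ in 4 of 4 WT litters, from -0.23 to -0.04 log2 CPM, and in 3 of 4 KO litters. With library totals *Atg12* was called down in both genotypes (-0.29 in WT, edgeR, adjusted p = 0.00145, and -0.30 in KO, edgeR, adjusted p = 0.00118).

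*Becn1* shares overlapping exons with *Cntd1* and *Atg12* with *Ap3s1*, in both cases on opposite strands, and the libraries do not record the strand. The same holds for *Uqcrc2* with *Pdzd9* and *Gm45112*, *Mavs* with *Gm75131* and *Rrbp1* with *Gm75346*. In *Becn1* a single library stood out: KO litter 2 was at 6.17 log2 CPM after LPS + IFNγ, against 5.80 to 5.89 in the other 3. *Atg5* varied without a group pattern, with WT litter 4 highest of all 16 libraries in vehicle at 5.04 log2 CPM.

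In the list of ATG12 conjugation and LC3 lipidation, 1 of 11 genes fell and 0 rose in WT, and 2 rose and 4 fell in KO. *Map1lc3b*, which encodes the autophagosome protein LC3B, fell by 0.47 log2 (SE 0.07, edgeR, adjusted p = 0.000249) in WT and by 0.63 (SE 0.07, edgeR, adjusted p = 2.82e-05) in KO. *Gabarapl1*, an LC3 relative, rose by 0.27 (SE 0.08, edgeR, adjusted p = 0.0121) in KO, and *Atg10*, the enzyme that loads ATG12, fell by 0.55 (SE 0.20, edgeR, adjusted p = 0.0406). With library totals this list had 0 up and 6 down in each genotype. In the Beclin 1 lipid kinase complex list 3 of 10 genes rose and 3 fell in WT, and 5 rose and 3 fell in KO. Over all genes 23.7% rose and 20.2% fell in WT, and 25.3% and 24.2% in KO. With library totals 3 of the 10 were up and 3 down in each genotype. *Bcl2l1*, which encodes the Beclin 1 inhibitor BCL-XL, rose by 0.65 log2 (SE 0.11, edgeR, adjusted p = 0.000928) in WT and 1.14 (SE 0.11, edgeR, adjusted p = 1.78e-05) in KO, and *Uvrag*, a subunit of a Beclin 1 complex, by 0.52 (SE 0.11, edgeR, adjusted p = 0.00307) and 0.55 (SE 0.11, edgeR, adjusted p = 0.00190).

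*Rrbp1* (chr2:143789118-143853195), a protein of the rough endoplasmic reticulum that binds ribosomes, was the only partner called up in KO and not in WT. It was at 8.13, 8.11, 8.13 and 8.15 log2 CPM in WT vehicle and at 8.25, 8.24, 8.11 and 8.09 after LPS + IFNγ. In KO it was at 8.23, 8.51, 8.05 and 8.0 in vehicle and at 8.49, 8.89, 8.23 and 8.79 after LPS + IFNγ. The 4 WT vehicle libraries were within 0.04 log2 CPM of each other, while the KO litters were spread in both wells, with litter 2 highest. Each KO litter rose, but the stimulated libraries of litters 1 and 3 stayed below the vehicle library of litter 2.

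*Rrbp1* rose by 0.39 log2 (SE 0.08, 1.31-fold, edgeR, adjusted p = 0.00319) in KO, and its WT value was 0.04 (SE 0.08, edgeR, adjusted p = 0.766). The responses of the single litters were 0.12, 0.13, -0.02 and -0.06 in WT and 0.26, 0.38, 0.18 and 0.80 in KO on the log2 CPM scale. These did not overlap, which is the case with a larger KO response for 3.06% of genes. The interaction was 0.35 (SE 0.12), with an unadjusted p of 0.0137 and an adjusted p of 0.232 in edgeR, and was not called by DESeq2 (0.36, adjusted p = 0.0818) or limma (0.36, adjusted p = 0.184). It was not called without any one litter either, and without KO litter 4 it was 0.22 (edgeR, adjusted p = 0.365) and without KO litters 2 and 4 it was 0.17 (edgeR, adjusted p = 0.601), each smaller by over 1.5 times. The rise in KO remained called without that litter, at 0.26 (edgeR, adjusted p = 0.00458), and without KO litters 2 and 4, at 0.21 (edgeR, adjusted p = 0.0222), and with library totals it was 0.22 in KO (edgeR, adjusted p = 0.0342) and -0.13 in WT (edgeR, adjusted p = 0.213).

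Of 13 genes of the ribosome and translocon sites of the endoplasmic reticulum, 8 rose and 1 fell in WT and 6 rose and 1 fell in KO, with medians of 0.35 and 0.22 log2, and with library totals the counts were 7 and 3 in WT and 5 and 4 in KO. *Rpn1*, a subunit of the oligosaccharyltransferase, rose by 0.90 log2 (SE 0.05, edgeR, adjusted p = 1.27e-07) in WT and 0.78 (SE 0.05, edgeR, adjusted p = 3.84e-07) in KO. *Ckap4*, a membrane protein of endoplasmic reticulum sheets, rose by 0.49 (SE 0.05, edgeR, adjusted p = 1.35e-05) in KO. The interaction was not called for any of the 13.

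For *Rrbp1*, *Uqcrc2* and *Tufm* the 300 bases before the annotated start are shown, because these responders have start regions of different make-up. The sequences are from GRCm39 at chr2:143853196-143853495 for *Rrbp1* (minus strand), chr7:120233676-120233975 for *Uqcrc2* (plus strand) and chr7:126086211-126086510 for *Tufm* (plus strand), with starts from GENCODE M39, and capitals mark matches to the motifs searched.
Rrbp1: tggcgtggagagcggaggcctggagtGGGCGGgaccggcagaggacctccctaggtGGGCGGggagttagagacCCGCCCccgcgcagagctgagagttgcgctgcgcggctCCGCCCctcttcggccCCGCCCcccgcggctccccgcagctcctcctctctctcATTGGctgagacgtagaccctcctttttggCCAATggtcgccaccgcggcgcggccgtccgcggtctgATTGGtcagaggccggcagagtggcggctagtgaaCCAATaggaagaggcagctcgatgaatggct
Uqcrc2: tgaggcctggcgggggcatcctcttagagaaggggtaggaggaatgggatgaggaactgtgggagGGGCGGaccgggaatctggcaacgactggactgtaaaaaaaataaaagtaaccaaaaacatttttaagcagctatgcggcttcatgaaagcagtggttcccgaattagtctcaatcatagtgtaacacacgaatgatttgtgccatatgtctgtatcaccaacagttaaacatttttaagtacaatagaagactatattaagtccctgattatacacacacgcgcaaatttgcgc
Tufm: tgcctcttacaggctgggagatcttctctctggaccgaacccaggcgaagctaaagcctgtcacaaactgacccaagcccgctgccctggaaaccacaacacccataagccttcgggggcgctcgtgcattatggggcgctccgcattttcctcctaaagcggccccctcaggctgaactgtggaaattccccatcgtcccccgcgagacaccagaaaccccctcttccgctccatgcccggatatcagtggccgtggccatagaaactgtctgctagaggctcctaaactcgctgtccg
Motifs were searched on both strands: the GAS element (TTCNNNGAA), an ETS site (CCGGAAG), the CCAAT box (CCAAT), the GC box (GGGCGG) and the consensus of the ISRE, of NRF1 and of ERSE, of which the last contains a CCAAT box. The CCAAT box, the GC box and ERSE were added after the windows had been looked at.

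The *Rrbp1* window was 68.7% G and C and held 4 CCAAT boxes, at 134, 104, 66 and 31 bases before the start, and 5 GC boxes, at 274, 244, 226, 188 and 172 bases. At least 4 CCAAT boxes were found in 1.14% of 21769 windows of the same length, and at least 5 GC boxes in 2.12%. The *Uqcrc2* window was 43.7% G and C with 1 GC box at 235 bases, which 37.6% of windows match at least once, and the *Tufm* window was 59.0% G and C with no match. ISRE was present in 4.07% of windows, GAS in 9.20%, NRF1 in 0.707%, ETS in 7.36%, a CCAAT box in 40.5% and ERSE in 0.115%. None of the 10 partners had an ISRE, NRF1 or ERSE match, and *Sting1* alone had a GAS match, at 39 bases before its start, and an ETS match, at 9 bases. A match is a description of the letters, and binding was not measured.

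The second question was whether the partners differed between KO and WT within a treatment. In vehicle 0 of 10 were called, as were 0 (0.0%) of all 16066 genes by edgeR, of which 3152 had an unadjusted p below 0.05. Of the partners 4 had such a p: *Sting1*, *Uqcrc2*, *Tufm* and *Atg12*. DESeq2 and limma also called 0 of the 10, although DESeq2 called 486 genes up and 295 down over all genes. *Uqcrc2* (0.13, adjusted p = 0.0507) and *Sting1* (1.16, adjusted p = 0.0525) just missed the threshold in DESeq2. In limma their adjusted p were 0.133 and 0.134.

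In vehicle *Sting1* was 1.17 log2 (SE 0.42) higher in KO (edgeR, adjusted p = 0.164), but WT litter 1 lay above 2 of the 4 KO libraries. Without KO litter 3 the difference was 1.40 and called (edgeR, adjusted p = 0.0399). *Uqcrc2* was 0.13 log2 (SE 0.05) higher in KO (edgeR, adjusted p = 0.167) and *Tufm* 0.17 (SE 0.07, edgeR, adjusted p = 0.192). For both, all 4 KO libraries lay above all 4 WT libraries, a separation seen in 6.02% of genes, and none of the partners separated the other way, which 3.43% of genes did. For *Tufm* the gap was 0.01 log2 CPM, from 6.64 in WT litter 2 to 6.65 in KO litter 4. *Atg12* was at -0.15 (SE 0.07, edgeR, adjusted p = 0.229), with overlapping libraries.

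After LPS + IFNγ, 1 of 10 partners was called between the genotypes, *Sting1*, which was higher in KO. Among all genes 5.03% were called, 2.65% higher and 2.38% lower in KO. The difference in *Sting1* was 1.58 log2 (SE 0.39, 2.98-fold, edgeR, adjusted p = 0.0423). The 4 KO libraries, from 4.13 to 5.57 log2 CPM, lay above the 4 WT libraries, from 2.92 to 3.81, a separation in this direction that 7.09% of genes showed. The call was lost without WT litter 2, 3 or 4 and without KO litter 1, 2 or 4, with values from 1.31 to 1.66 and adjusted p from 0.0577 to 0.150 in edgeR. It was also lost with the 8 stimulated libraries alone (1.58, edgeR, adjusted p = 0.0746). Those 8 hold 1 well per litter, whereas the main fit took both wells of a litter as independent. The KO litters highest in *Sting1*, litters 2 and 4, were also the lowest of the 4 in *Gfap* and *Mbp* in both wells. Without both, the difference was 1.10 after LPS + IFNγ (edgeR, adjusted p = 0.322) and 0.48 in vehicle (edgeR, adjusted p = 0.802), and the part of these litters' make-up in it was not tested.

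*Rrbp1* was 0.44 log2 (SE 0.13) higher in KO after LPS + IFNγ and just missed the threshold (edgeR, adjusted p = 0.0532). KO litter 3 at 8.23 log2 CPM lay below WT litters 1 and 2, and the other 3 KO libraries lay above all WT libraries. It was called by DESeq2 (0.44, adjusted p = 0.0124), by limma on the deposited values (0.43, adjusted p = 0.0459), with library totals (0.42, edgeR, adjusted p = 0.0496) and without KO litter 3 (0.54, edgeR, adjusted p = 0.00648). It was not called without length offsets (0.41, edgeR, adjusted p = 0.0691), with the stimulated libraries alone (0.44, edgeR, adjusted p = 0.0885) or without any other single litter, at 0.33 to 0.48 and adjusted p from 0.0614 to 0.164 in edgeR. Without KO litters 2 and 4, which were lowest in *Gfap* and *Mbp*, it was 0.18 (edgeR, adjusted p = 0.421). *Atg12* was at -0.16 (SE 0.07, edgeR, adjusted p = 0.141) and *Fastkd5* at 0.21 (SE 0.14, edgeR, adjusted p = 0.337). The other 6 lay between -0.05 and 0.05.

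**Figure D4:**
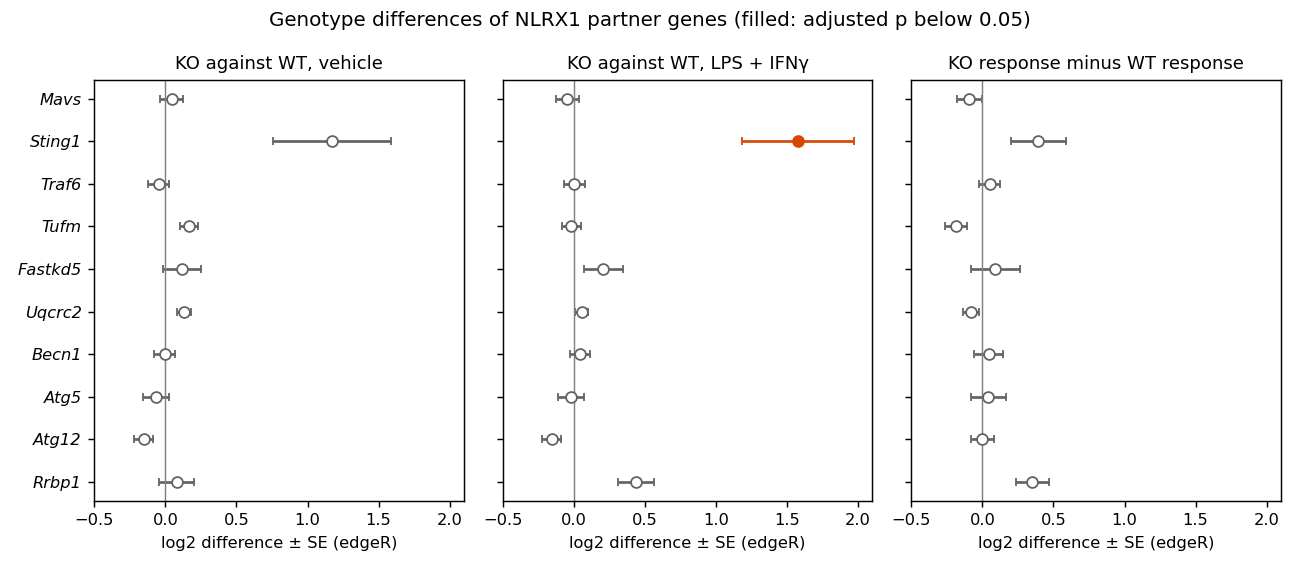
Fitted log2 differences with their SE from edgeR for each gene: KO against WT in vehicle, KO against WT after LPS + IFNγ, and the KO response minus the WT response. Filled points are called at an adjusted p below 0.05, which holds for *Sting1* after LPS + IFNγ at 1.58, and *Rrbp1* is next there at 0.44.

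The third question, whether the responses differed between genotypes, gave 0 of 10 partners and 0 (0.0%) of all genes called by edgeR, while 2469 genes had an unadjusted p below 0.05 and DESeq2 called 113 up and 197 down. The litters did not overlap, with the larger response in KO, for *Sting1* and *Rrbp1*, beside 3.06% of all genes, and for 0 partners with the larger response in WT, beside 5.25%. The 2 partners with such a p were *Rrbp1* and *Tufm*, with opposite signs as given above. For the 100 genes of the lists around the partners, 46 rose and 9 fell in WT, beside 23.7% and 20.2% of all genes. In KO 49 rose and 12 fell, beside 25.3% and 24.2%. Of these 100 genes 0 were called in the interaction or in vehicle. After LPS + IFNγ 3 of 100 were called higher in KO, beside 2.65% of all genes. Over all genes the calls in this direction fell from 426 to 0 without WT litter 2, 3 or 4 and with the stimulated libraries alone, and to 1 without KO litters 2 and 4. The 3 genes were *Tbrg4*, a FASTK family member, at 0.56 log2 (SE 0.15, edgeR, adjusted p = 0.0484), *Atg16l1*, which anchors the ATG12-ATG5 conjugate, at 0.40 (SE 0.09, edgeR, adjusted p = 0.0396), and *Atg3*, the LC3 conjugating enzyme, at 0.25 (SE 0.07, edgeR, adjusted p = 0.0484). With library totals the list counts were 38 up and 26 down in WT and 34 up and 25 down in KO, and of the genes called in the first place *Lrpprc* alone changed sign, in WT.

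For 4 partners a second transcript held at least 10% of the reads, and its share was compared between groups in 16 two-sided exact permutation tests over litters. None was called, but none could have been. The smallest p of the exact permutation test is 0.125 for 4 paired litters and 0.0286 for 4 against 4 litters. Adjusted over the 16 tests, neither can fall below 0.05, so the tests do not show that the shares were stable. The lowest exact p found was 0.125, and the lowest adjusted p was 0.381. *Rrbp1* transcript XM_006500444.5 held 26.7% ± 0.231 of the gene's reads in KO vehicle and 27.8% ± 3.44 in KO LPS + IFNγ (SD, n = 4), where litter 3 was at 32.9% and the others at 25.5 to 26.7%. In WT it held 29.8% ± 4.74 in vehicle and 25.5% ± 3.32 after LPS + IFNγ. *Traf6* transcript NM_009424.3 held 33.0% ± 5.12 in WT vehicle and 39.5% ± 10.7 after LPS + IFNγ, and was higher in 4 of 4 WT litters, and in KO it held 35.96% ± 10.1 and 39.6% ± 10.7. *Fastkd5* transcript NM_198176.3 had the largest differences of the 16: its share was 37.1% ± 8.59 in WT vehicle and 27.03% ± 7.48 after LPS + IFNγ, lower in 4 of 4 litters, and 26.9% ± 8.61 and 34.8% ± 11.1 in KO, higher in 4 of 4. The litters of these groups overlapped.

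As a description over the 16 libraries, the gene with the most similar log2 CPM among 11962 was *Rps27l* for *Sting1* (Pearson r = 0.98, with *Cdkn1a* next at 0.98), *Atp5b* for *Uqcrc2* (0.98), *Xpot* for *Rrbp1* (0.96), *Rgs9* for *Atg12* (0.96), *Traf4* for *Traf6* (0.94) and *Fam171b* for *Tufm* (0.92). *Fastkd5* (*Cnot6l*, 0.85), *Mavs* (*Tmprss7*, 0.77), *Atg5* (*Zfp672*, 0.76) and *Becn1* (*Wwtr1*, 0.74) had looser matches. The 16 libraries share treatments, genotypes and litters.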

How the data were processed

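RNA from 16 astrocyte cultures was analysed. The authors quantified poly-A captured, unstranded libraries with Salmon 1.7.0 against the GRCm39 transcriptome and deposited, per transcript, the expected count, which is not normalized. The authors also deposited Salmon's TPM, a length-scaled level, and effective transcript lengths. Per gene, the authors deposited a CPM signal, for which length-scaled counts were filtered, scaled by TMM and divided by library size (limma 3.58.1 is named in the submitters' notes), and its log2, to which a small prior was added.

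Gene totals of the expected counts used 106440 of 129698 transcripts, those with a symbol for their RefSeq accession (96.7 to 97.3% of reads), and were rounded and tested with edgeR 4.0.16 in R 4.3.3 (quasi-likelihood, TMM, length offsets, filterByExpr with a minimum count of 10, Benjamini-Hochberg). Responses and their interaction used litters as blocks within genotype. KO and WT were compared in a fit of the 4 groups without litter terms, since a litter has 1 genotype. That fit shared 1 estimate of the spread over all libraries and took both wells of a litter as independent. It therefore overstates the number of independent values behind its p-values. The alternative with the libraries of 1 treatment alone has 1 well per litter. Wells of a litter are paired by the labels, and their log2 CPM, centred on the group mean, had Pearson r between 0.26 and 0.62 in all 8 litters. The median between other litters was -0.12. Centring makes that median negative when the values within litters are positive, so it is no separate baseline. Levels and single-litter responses are the deposited log2 CPM, and TPM was used to compare genes. The spread between litters, held in the SE and SD, limits the precision of most values, and counting error adds to it for *Sting1*, with 50 reads in its lowest library. Alternatives were DESeq2 1.42.0, limma on the deposited log2 CPM, DESeq2 size factors, no length offsets, no filter, other blocks, other pseudocounts, TPM, leaving out each litter and, added later, library totals and leaving out KO litters 2 and 4 together. Positions and promoter windows came from GENCODE M39 on GRCm39, and symbols from a RefSeq table of GRCm38.p6. The gene paired as *Rigi* was found under its older symbol *Ddx58*. Levels and figures were made in Python 3.11.15 with pandas 2.3.3, numpy 2.4.6 and matplotlib 3.10.9. Fits were tested on simulated data.

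The 10 genes and the lists around them were chosen with earlier results of these data known. The named genes are the 10 partners, *Nlrx1*, the gene most similar to each partner, and for each list up to 3 called genes with the largest change per comparison. *Uqcrh*, the KO value of *Uqcr11* and the change of *Lrpprc* under library totals were named after their values were seen. The list of other reported NLRX1 partners had 1 of 6 genes up and 2 down in WT, and 2 up and 2 down in KO. Beside this, 23.7% of all genes were called up and 20.2% down in WT, and 25.3% and 24.2% in KO. *Map1lc3b* and *Uvrag*, given above with the autophagy lists, are also among these 6. Sequences on chromosome 18 are not reported here.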

Additional observations from a re-analysis of the deposited data

Results flagged for a closer look

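In 3 of 60 groups of 4 values the highest or the lowest value stood apart from the other 3, by a gap that, divided by the whole range, exceeded Dixon's 95% critical value for 4. Chance gives about 1 in 20 such groups, which is 3 of 60.

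The response of *Sting1* was lowest in WT litter 1, at 1.932 log2 CPM against 2.57 to 2.63 in the other WT litters. That litter had the highest vehicle level of *Sting1* in WT, at 1.87 log2 CPM. The level of *Tufm* was lowest in the WT vehicle library of litter 3, at 6.47 log2 CPM against 6.62 to 6.64 in the other 3. The response of *Becn1* was highest in KO litter 2, at 0.3188 log2 CPM against -0.10 to -0.03 in the others.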

How the results depend on the processing

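*Sting1* rose in both genotypes, *Uqcrc2* in WT and *Rrbp1* in KO in all edgeR, DESeq2 and limma fits run. *Tufm* in WT and *Uqcrc2* in KO lost their calls with library totals alone, and *Traf6* in WT without the litter block and without WT litter 1, 2 or 3. Of 840 fold changes of the partners under alternatives, 753 kept their direction and side of the threshold, 17 became called, 14 lost their call and 56 changed sign. None of those 56 was called before or after, and the cause was not tested.

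Library totals in place of TMM gave 3 partners down in each response, and over all genes 2433 up and 5384 down in WT and 2657 up and 5887 down in KO. They turned the WT responses of *Mavs* (-0.085) and *Rrbp1* (-0.13), the KO responses of *Tufm* (-0.070), *Fastkd5* (-0.14), *Becn1* (-0.15) and *Atg5* (-0.13), and the difference of *Traf6* between genotypes after LPS + IFNγ (-0.0078). They gave 2 partners up after LPS + IFNγ and 1 gene down in vehicle. DESeq2 size factors in edgeR and no length offsets each gave 1 partner down in KO. Without length offsets *Becn1* (0.0051) and *Atg5* (0.0074) changed sign in the WT response, *Becn1* in vehicle (0.013) and *Atg5* after LPS + IFNγ (0.018), and limma turned *Atg5* in the WT response (0.0022) and *Becn1* in vehicle (0.0040, also with litter as a random block). The interaction of *Atg12* was 0.0091 with DESeq2, 0.024 with limma, 0.0097 with DESeq2 size factors and 0.010 without offsets.

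Of 140 mean litter responses recomputed from levels, 17 moved by over 1 SD. TPM in place of log2 CPM moved the median of all genes to -0.22 in WT and -0.18 in KO. With it *Uqcrc2* was at 0.07 in WT and 0.04 in KO, *Tufm* at 0.07 and -0.07, *Rrbp1* at -0.17 and 0.22, and *Sting1* at 2.19 and 2.64. A pseudocount of 1 gave *Sting1* 1.95 and 2.57.

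Without KO litters 2 and 4 together 0 partners were called after LPS + IFNγ, with 1 gene up and 2 down there, 1 down in vehicle and 2584 down in the KO response. Signs changed for *Becn1* (-0.076 in the KO response, -0.048 in the interaction, -0.061 after LPS + IFNγ), *Fastkd5* in vehicle (-0.067), and *Traf6* (-0.015) and *Tufm* (0.067) after LPS + IFNγ.

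Between KO and WT in vehicle, DESeq2 called 486 genes up and 295 down, and limma, the fit without a filter, the replicate block and the random block 1 down each. In the interaction DESeq2 called 113 up and 197 down, and the fit without a filter 1 down. After LPS + IFNγ, DESeq2 called 1266 up and 1236 down, limma 735 and 736, and the random block in limma 971 and 1063, each with 2 partners up, while the 8 stimulated libraries alone gave 0 partners, 0 genes up and 0 down. The replicate number used as a block there gave 1014 up and 1192 down with 2 partners up, *Sting1* (1.54, edgeR, adjusted p = 0.0216) and *Rrbp1* (0.42, edgeR, adjusted p = 0.0290). Whether the numbers pair the genotypes is not known. Between WT and KO libraries of the same number r ranged from -0.24 to 0.36. For number 3 it was 0.36 in vehicle and 0.26 after LPS + IFNγ. Without the litter block 0 partners were called down in WT, and *Traf6* was the one call of a partner in the responses that changed.

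Leaving out a litter gave 0 to 1 partners down in each response, 0 to 1 up in vehicle and 0 to 2 up after LPS + IFNγ. All genes ranged from 0 to 125 up and 0 to 192 down in the interaction, 0 to 590 up and 0 to 720 down in vehicle, and 0 to 1499 up and 1 to 1834 down after LPS + IFNγ, where KO litter 3 gave the highest counts when left out. Signs changed in the responses of *Atg5* (-0.083 to 0.090 in WT, -0.012 to 0.090 in KO), and in KO of *Mavs* (-0.038 to 0.012), *Fastkd5* (-0.10 to 0.11) and *Becn1* (-0.084 to 0.050). They changed in the interactions of *Fastkd5* (-0.035 to 0.20), *Becn1* (-0.054 to 0.080), *Atg5* (-0.049 to 0.12) and *Atg12* (-0.053 to 0.030). In vehicle they changed for *Mavs* (-0.0023 to 0.11), *Traf6* (-0.076 to 0.015), *Fastkd5* (-0.0096 to 0.18), *Becn1* (-0.027 to 0.015), *Atg5* (-0.11 to 0.027) and *Rrbp1* (-0.036 to 0.15), and after LPS + IFNγ for *Traf6* (-0.029 to 0.034), *Tufm* (-0.071 to 0.015), *Becn1* (-0.045 to 0.082) and *Atg5* (-0.066 to 0.021). The second transcript's share changed sign for *Traf6* in the KO response (-0.476 to 9.55 percentage points), in vehicle (-0.134 to 7.42) and after LPS + IFNγ (-4.69 to 5.03), and for *Rrbp1* in the KO response (-0.586 to 2.01).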
